A study of Mus musculus with 8 samples.

Results

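Krt6a, Krt6b, Krt16, Krt17 and Krt75, the keratins of the companion layer and of stressed skin, were followed in hair matrix keratinocytes that lacked Tet2 and Tet3. They were picked by gene name and are 5 of the 32693 genes listed in either deposited table. All 5 were listed in both tables. Keratins form filaments from pairs of a type II and a type I chain, and Krt6a, Krt6b and Krt75 are type II while Krt16 and Krt17 are type I. The companion layer is a thin cell layer between the outer and the inner root sheath of the hair follicle, and Krt75 is its best known marker. Krt6a, Krt16 and Krt17 are present in the follicle in normal skin and are induced in the epidermis between follicles after wounding or inflammation, hence the name stress keratins.

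There were 4 groups of 2 RNA-seq libraries, all from sorted cells taken at postnatal day 4.5. They were untreated Tet2/Tet3 double knockout (DKO) mice, untreated wild type (WT) mice, DKO mice given 5-aza, and WT mice given 5-aza. The DKO genotype carries Krt14-Cre, a recombinase driven by a keratin promoter that is active in basal epidermis and the outer root sheath. Tet2 and Tet3 oxidise methylated cytosine in DNA, and 5-aza is a cytidine analog that blocks DNA methylation. The dose was 50 µg under the skin at postnatal day 2.5, and the labels mention no vehicle for the untreated mice. They do not say whether WT mice carried Cre or floxed alleles or which markers defined the sort. Nothing says that each library is its own animal, and the p-values below measure the spread between libraries. After 5-aza that spread may be technical. Without treatment the 2 libraries of each genotype differed in Xist and Ddx3y, as given below, so they were not repeats of the same sample.

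Library totals were 19528602 to 22837436 reads in the untreated table and 39493929 to 58353167 in the 5-aza table, and reads in listed genes were 11825515 to 14132115 and 16744915 to 23512270. Tet3 was 6.92 and 7.31 FPKM (reads scaled to the gene's length and the library's total) in untreated DKO libraries against 11.8 and 11.4 in untreated WT libraries, and 6.54 and 5.99 in DKO libraries after 5-aza against 10.4 and 11.5 in WT libraries. Tet2 was 0.809 of its WT mean in DKO libraries without treatment and 0.826 after 5-aza. The labels do not give the deleted exons, so these whole-gene values check the genotype only in part. All 10 matrix markers, among them Msx2, Hoxc13 and Shh, were detected in every library. They summed to 240.3 to 314.3 FPKM in untreated libraries. There 6 fibroblast markers summed to 1348 and 1133 FPKM in DKO libraries and 465 and 1255 FPKM in WT libraries. After 5-aza the fibroblast sums were 96.9 and 139.8 FPKM in DKO libraries and 143.6 and 67.8 FPKM in WT libraries. The part of fibroblast markers in the results below was not tested. Xist and Ddx3y split the untreated libraries by replicate number: Xist was 74.4 and 1.19 FPKM in DKO replicates 1 and 2, against 82.1 and 0.327 in WT replicates 1 and 2, and Ddx3y was low where Xist was high. After 5-aza both genes were present in every library and differed by genotype. The 2 tables were processed separately, so 5-aza was not tested against no treatment, and levels from the 2 tables are only set side by side. In such bulk samples, fewer cells of a type and less RNA per cell cannot be told apart.

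The genes lie in the 2 keratin clusters of the mouse genome, all on the minus strand (build GRCm38, annotation GENCODE vM21). Krt75 (ENSMUSG00000022986) spans chr15:101563345-101573904, Krt6b (ENSMUSG00000023041) chr15:101676023-101680287 and Krt6a (ENSMUSG00000058354) chr15:101689910-101694307. Krt16 (ENSMUSG00000053797) spans chr11:100246091-100248902 and Krt17 (ENSMUSG00000035557) chr11:100256217-100261029. The type II genes have 9 exons and the type I genes 8. Krt6a begins 9622 bases above the end of Krt6b and ends 12762 bases below Krt5, and 7314 bases separate Krt16 from Krt17.

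Krt6a and Krt6b are near copies of each other, which bears on how reads can be assigned to them. Their coding sequences are identical at 97.8% of 1662 aligned bases, with 37 differences and a longest identical run of 280 bases. Coding bases 787 to 876 hold 12 of those differences and are shown because this stretch tells the genes apart. The sequences are those of the GENCODE transcripts, 5′ to 3′, and capitals mark the differing bases.
Krt6a: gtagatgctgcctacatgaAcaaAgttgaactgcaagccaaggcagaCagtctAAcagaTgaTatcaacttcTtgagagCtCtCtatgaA
Krt6b: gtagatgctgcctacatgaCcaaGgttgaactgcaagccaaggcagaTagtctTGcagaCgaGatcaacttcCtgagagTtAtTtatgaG
Of the 37 differences, 23 fall at the last position of a codon. Cut into every possible 150-base window, the length of a sequenced read, 30.2% of the Krt6a coding transcript also occurs in transcripts of other genes, mostly Krt6b and the antisense model Gm49428. For Krt6b the share is 18.8%, all of it shared with Krt6a, and for Krt16 it is 18.4%, shared with Gm11597. Krt17 and Krt75 share no such window. Values of Krt6a, Krt6b and Krt16 are therefore uncertain as far as the counting split or dropped shared reads, and Gm49428 itself held only 6 and 1 reads in DKO libraries and 0 and 0 in WT libraries after 5-aza. The other pairs are further apart, with 77.5% coding identity between Krt16 and Krt17, 86.0% between Krt16 and Krt14, and 75.9% between Krt6a and Krt75.

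Gene length also enters the levels. The deposited length equals the exon bases summed over all annotated transcripts in 97.6% of genes of the untreated table. Among these keratins only Krt6a has 2 transcripts, so its deposited length of 4633 bases is 1.92 times the 2418 bases its exons cover. Its FPKM is lower by that factor in every library, which leaves ratios of FPKM as they are but enters log2(FPKM + 1). With joined exon lengths the DKO minus WT difference of Krt6a on that scale was 1.51 in untreated cells (limma adjusted p = 0.0608) and 1.31 after 5-aza (0.415). Levels between genes are therefore given below as FPKM per length of the joined exons, and all values within a gene as deposited FPKM.

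In untreated matrix cells the stress keratins Krt16, Krt6a and Krt6b were higher in DKO than in WT libraries, while Krt17 and Krt75 overlapped. Krt16, a type I chain of wounded and hyperproliferative epidermis, had 17.8 and 25.3 FPKM in DKO libraries and 2.31 and 1.72 FPKM in WT libraries. Both DKO libraries lay far above both WT libraries. The means were 21.6 ± 5.29 FPKM in DKO and 2.01 ± 0.415 FPKM in WT libraries (SD, n = 2 each), a ratio of 10.7. The difference on log2(FPKM + 1), a scale that understates the change of low genes, was 2.89 ± 0.20 (SE), with an adjusted p of 0.0746 by limma over all 17339 genes tested. It ranked 8 of these genes by p.

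Krt6a, the main type II partner of Krt16 in stressed skin, had 4.04 and 4.81 FPKM in untreated DKO libraries and 0.992 and 1.45 FPKM in untreated WT libraries. The groups did not overlap, and the means were 4.43 ± 0.541 FPKM in DKO and 1.22 ± 0.323 FPKM in WT libraries (SD, n = 2 each), a ratio of 3.62. The log2 difference was 1.29 ± 0.14 (SE; limma adjusted p = 0.117). Krt6b, the second mouse Krt6 gene, was low throughout, with 0.546 and 1.47 FPKM in DKO libraries and 0.0590 and 0.0592 FPKM in WT libraries. These values rest on 27 and 64 reads in DKO libraries and on 3 and 3 reads in WT libraries. Per library total, the DKO reads were 16.6 times the WT reads, with a 95% exact binomial interval of 7.33 to 46.4 that covers counting error only. Its log2 difference was 0.88 ± 0.23 (SE; limma adjusted p = 0.286). At so low a level the size depends on the scale, with 2.66 for Krt6b when 0.1 FPKM was added before the logarithm and 3.65 with voom on the recovered reads.

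Krt17, a type I keratin of the outer root sheath, companion layer and other follicle cells, was the most abundant of the 5 in every library. It had 68.4 and 98.9 FPKM in untreated DKO libraries and 68.5 and 79.4 FPKM in untreated WT libraries. The lower DKO library lay just below both WT libraries and the other above both. The log2 difference was 0.16 with a 95% interval of -0.47 to 0.78 (limma adjusted p = 0.862). Krt75, the companion layer marker, had 12.7 and 18.2 FPKM in DKO libraries and 12.9 and 15.6 FPKM in WT libraries. These groups overlapped as well, with a log2 difference of 0.10 and an interval of -0.42 to 0.61 (limma adjusted p = 0.903).

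By limma, 0 of the 5 keratins passed an adjusted p of 0.05 in untreated cells, against 0% of tested genes called higher and 0.00577% called lower. At an unadjusted p under 0.05, 3 of the 5 were higher (Krt16, Krt6a and Krt6b), against 6.72% of tested genes higher and 4.73% lower. The same 3 had both DKO libraries above both WT libraries, against 24.1% of tested genes. Krt6b, with 3 reads in each WT library, passed the filter only through its DKO libraries. Once tested it could hardly come out other than higher, so its part in these 2 counts is no support. The authors' deposited table gives the same 3 genes an adjusted p under 0.05, against 0.793% of its genes called higher. In the authors' deposited table the log2 fold change of DKO over WT is 3.39 for Krt16 (adjusted p = 8.9e-37), 1.84 for Krt6a (5.1e-11) and 4.06 for Krt6b (0.00116). In the authors' deposited table it is 0.15 for Krt17 and 0.09 for Krt75, each with an adjusted p of 0.999. Krt16 passed the threshold with voom on the recovered reads (adjusted p = 0.0172), in a fit of all 8 libraries (0.0214) and with joined exon lengths (0.0284), and Krt6a passed with voom (0.0213). Those settings called 77, 129 and 37 genes in all. Krt16 did not pass with a pseudocount of 0.1 (limma adjusted p = 0.0531), the replicate block (0.0776), TMM scaling (0.108) or no filter (0.264). Krt6a did not pass with these either. Within replicate 1 and within replicate 2, between which Xist differs, the DKO minus WT difference was 2.51 and 3.28 for Krt16, 1.34 and 1.25 for Krt6a, and 0.55 and 1.22 for Krt6b. Within the same replicate numbers it was -0.0022 and 0.31 for Krt17 and -0.02 and 0.21 for Krt75, so their sign differed between the replicates.

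**Figure D1:**
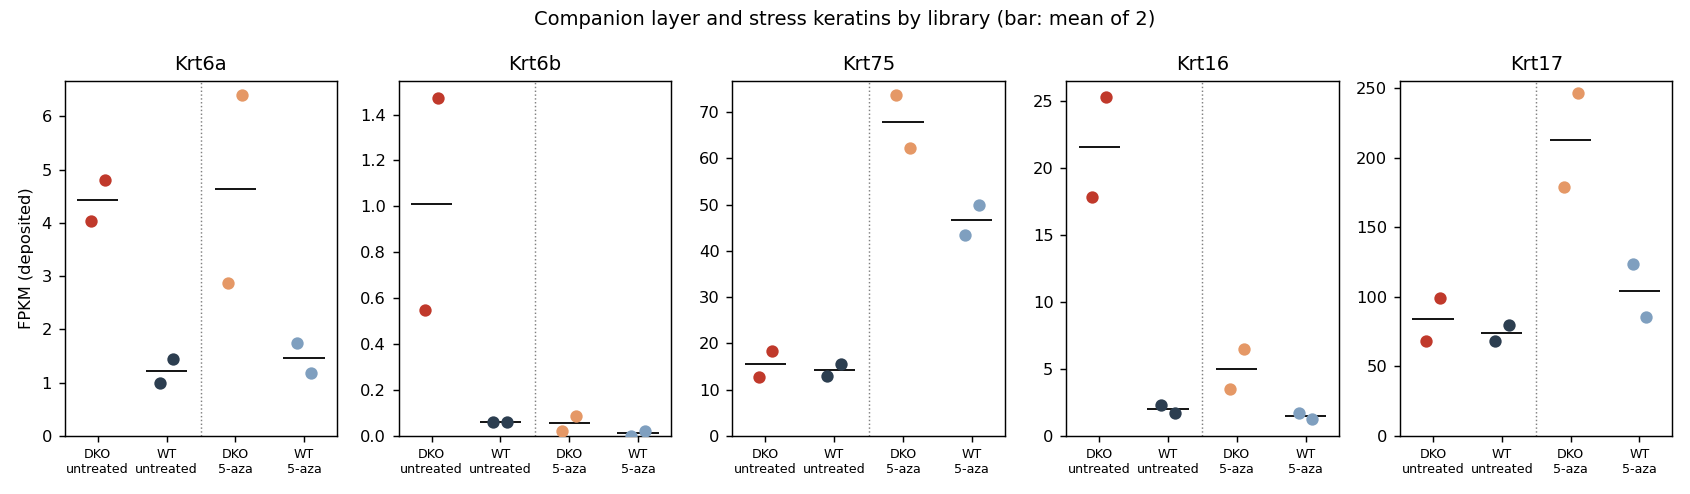
FPKM of the 5 keratins in each of the 8 libraries (points) with the mean of 2 libraries (bar), for the untreated table left of the dotted line and the 5-aza table right of it. In untreated libraries DKO lies above WT for Krt6a, Krt6b and Krt16 and overlaps it for Krt17 and Krt75, and after 5-aza DKO lies above WT for Krt6a, Krt16, Krt17 and Krt75, while Krt6b rests on 0 to 11 reads per library.

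After 5-aza Krt6a, Krt16, Krt17 and Krt75 were higher in both DKO libraries than in both WT libraries, and Krt6b was too low to tell. Krt17 had 179.0 and 246.2 FPKM in DKO libraries and 123.7 and 85.0 FPKM in WT libraries. The lower DKO library exceeded the higher WT library, and the means were 212.6 ± 47.5 FPKM in DKO and 104.4 ± 27.4 FPKM in WT libraries (SD, n = 2 each), a ratio of 2.04. The log2 difference was 1.03 ± 0.27 (SE; limma adjusted p = 0.437). Krt75 had 73.7 and 62.2 FPKM in DKO libraries and 43.4 and 49.9 FPKM in WT libraries. Its groups were apart by more than the spread within either, with a ratio of means of 1.46 and a log2 difference of 0.53 ± 0.14 (SE; limma adjusted p = 0.437).

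Krt16 had 3.50 and 6.45 FPKM in DKO libraries after 5-aza and 1.73 and 1.25 FPKM in WT libraries. The ratio of means was 3.34 and the log2 difference 1.22 ± 0.27 (SE; limma adjusted p = 0.399). Krt6a had 2.87 and 6.40 FPKM in DKO libraries and 1.73 and 1.18 FPKM in WT libraries. The 2 DKO libraries stood far apart for Krt6a, its ratio of means was 3.18, and its log2 difference was 1.13 ± 0.34 (SE; limma adjusted p = 0.480). Krt6b had 2 and 11 reads in DKO libraries and 0 and 2 reads in WT libraries, so 1 DKO library held as few reads as a WT library. It fell under the filter on low values and was not tested; its reads per library total in DKO libraries were 6.18 times those in WT libraries, with an exact binomial interval of 1.40 to 56.4. In the WT library with 0 reads, 3 reads would have been 0.0286 FPKM.

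By limma, 0 of the 4 keratins tested after 5-aza passed an adjusted p of 0.05, against 0% of tested genes called in either direction, and voom called 0 of them as well. At an unadjusted p under 0.05, 4 of the 4 were higher, against 6.64% of the 16856 genes tested being higher and 2.3% lower. All 4 had both DKO libraries above both WT libraries, against 28% of tested genes. The authors' deposited table calls 2 of the 5 higher, against 0.547% of its genes. In the authors' deposited table the log2 fold change of DKO over WT is 0.96 for Krt17 (adjusted p = 0.00109) and 1.68 for Krt16 (0.00138). In the authors' deposited table Krt75 has 0.47 (adjusted p = 0.1001) and Krt6a 1.61 (0.459). Without DKO replicate 2, the log2 difference of Krt6a was 0.67.

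Replicates within a group differed in these libraries along with other cell types' markers. The summed level of 6 melanocyte markers was 26.6 and 134.4 FPKM in DKO libraries and 93.3 and 19.7 FPKM in WT libraries after 5-aza. None of the 6 was at 0. The hair shaft keratins summed to 53.8 and 115.2 FPKM in DKO libraries and 64.2 and 39.5 FPKM in WT libraries. Within each genotype the library with the higher sums also had the higher Krt6a, Krt16 and Krt17 and the lower Krt75. Xist, which marks female cells, was 4.60 and 3.65 FPKM in DKO libraries and 16.9 and 23.1 FPKM in WT libraries after 5-aza, and the Y-linked Ddx3y was 2.08 and 2.00 FPKM in DKO libraries and 1.24 and 0.917 FPKM in WT libraries. The levels of both genes thus differed between the genotypes without overlap in the 5-aza table. The part of these markers and of Xist and Ddx3y in the results after 5-aza was not tested.

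**Figure D2:**
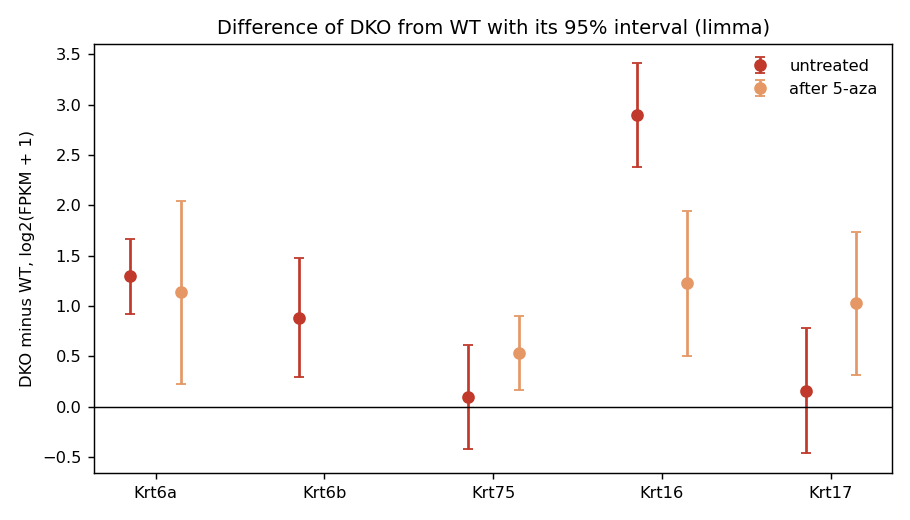
DKO minus WT difference of each keratin on log2(FPKM + 1), without treatment and after 5-aza, with 95% intervals from limma. Krt16 has the largest untreated difference at 2.89, Krt17 and Krt75 lie near 0 without treatment and at 1.03 and 0.53 after 5-aza, and Krt6b has no value after 5-aza because it was not tested.

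Whether the DKO difference itself differed with treatment was tested as the difference after 5-aza minus the difference without treatment, in 1 fit of all 8 libraries. For Krt16 this was -1.67 ± 0.39 (SE), a smaller DKO excess after 5-aza (unadjusted p = 0.00446, limma adjusted p = 0.503). For Krt6b it was -0.82 ± 0.27 (SE; adjusted p = 0.732) and for Krt17 0.87 ± 0.40 (SE; adjusted p = 0.847). Krt75 gave 0.43 ± 0.27 (SE; adjusted p = 0.911) and Krt6a -0.16 ± 0.43 (SE; adjusted p = 0.988). By limma 0 of the 5 passed, against 0.0054% of 18505 genes called higher and 0.0216% called lower, and voom called 0 as well. At an unadjusted p under 0.05, 2 of the 5 were lower (Krt16 and Krt6b), against 3.04% of genes lower and 3.05% higher. Krt6b passed the filter only through its untreated DKO libraries and was at most 0.0847 FPKM after 5-aza. Its value thus mostly repeats the untreated difference, and with voom it was -1.44 ± 1.65 (SE; unadjusted p = 0.408). The 95% interval for Krt6a ran from -1.19 to 0.87.

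The make-up of the 5 keratins differed between the groups. Per length of the joined exons, Krt16 was 16.6% and 16.5% of their summed level in untreated DKO libraries and 2.69% and 1.73% in untreated WT libraries. Krt17 was 63.7% and 64.5% in DKO libraries and 79.9% and 79.7% in WT libraries. Krt6a was 7.26% and 6.04% in DKO libraries and 2.23% and 2.80% in WT libraries. After 5-aza the shares of Krt16 were 1.33% and 1.97% in DKO libraries and 1.00% and 0.900% in WT libraries, so Krt16 was a small part of the set in both genotypes. Krt75 was 28.2% and 19.1% in DKO libraries and 25.3% and 36.1% in WT libraries after 5-aza, and these overlapped.

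**Figure D3:**
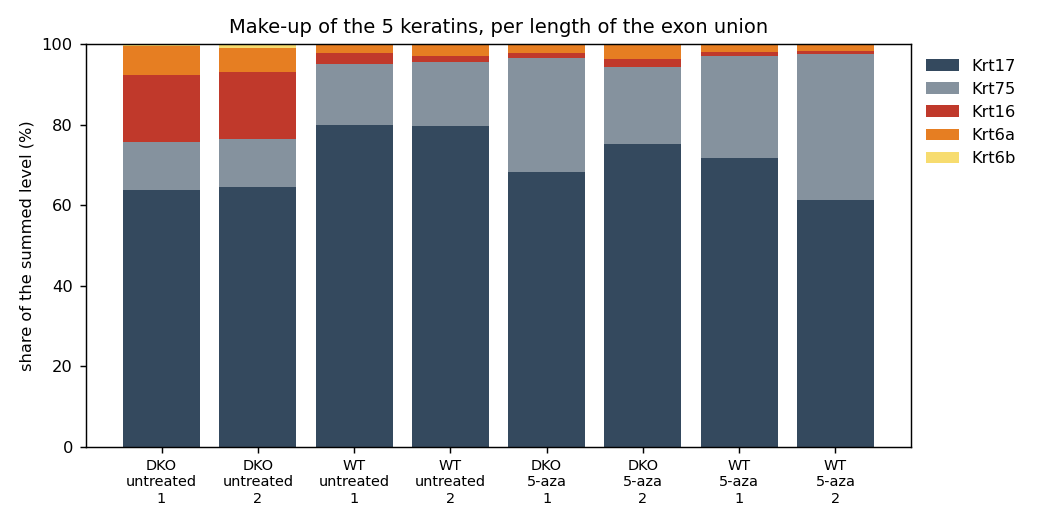
Share of each keratin in the summed level of the 5 keratins in each library, in percent, from FPKM per length of the joined exons. Krt16 takes 16.6% and 16.5% in untreated DKO libraries and no more than 2.69% in any other library.

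The order of levels within a group changed with genotype in untreated cells. In untreated DKO libraries it was Krt17, Krt16, Krt75, Krt6a and Krt6b, in FPKM per length of the joined exons, with means of 83.2, 21.5, 15.4, 8.48 and 1.01. Krt16 exceeded Krt75 within both of those libraries, at 17.8 against 12.7 and 25.2 against 18.2, although their ranges over the libraries overlapped. In untreated WT libraries the order was Krt17, Krt75, Krt6a, Krt16 and Krt6b, with means of 73.6, 14.2, 2.34, 2.00 and 0.0588. The order of Krt6a and Krt16 differed between those libraries, with Krt16 at 1.21 and 0.616 times Krt6a. After 5-aza the order was Krt17, Krt75, Krt6a, Krt16 and Krt6b in both genotypes, with means of 211.5, 67.8, 8.88, 4.95 and 0.0535 in DKO libraries and 103.9, 46.5, 2.79, 1.48 and 0.00977 in WT libraries. After 5-aza Krt6a exceeded Krt16 within every library. Krt16 was 0.632 and 0.524 times Krt6a in DKO libraries and 0.518 and 0.550 times in WT libraries. Among 52 keratin genes listed for the comparison, Krt17 ranked 6 in untreated DKO, 5 in untreated WT, 2 in DKO after 5-aza and 3 in WT after 5-aza. Krt75 ranked 21, 13, 5 and 8 in the same groups.

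Set beside each other, the tables differ in the level of Krt75. Its mean was 68.0 FPKM in DKO libraries after 5-aza and 15.5 FPKM in untreated DKO libraries, and 46.7 FPKM in WT libraries after 5-aza and 14.3 FPKM in untreated WT libraries. The treatment, the separate processing and the other differences between the tables cannot be told apart here. Of the 5 keratins, only Krt75 had a sequence among the promoters available, so no other promoter could be shown. DNA methylation in mammals sits mostly on CG dinucleotides, and the bases just before the Krt75 start are shown with each CG in capitals (RefSeq promoter table, build GRCm38.p6, chr15:101573905-101574154, minus strand).
Krt75 promoter: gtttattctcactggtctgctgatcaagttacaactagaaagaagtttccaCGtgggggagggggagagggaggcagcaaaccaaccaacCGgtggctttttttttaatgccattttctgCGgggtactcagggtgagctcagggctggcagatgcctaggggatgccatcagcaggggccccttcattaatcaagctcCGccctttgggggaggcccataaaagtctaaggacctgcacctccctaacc
These 250 bases hold 4 CG, against a median of 6 over 32851 promoters of the same length. Neither TATAAA, held by 12.4% of promoters, nor TGANTCA, the AP-1 motif, held by 6.75%, occurs in this window when both strands are searched. DNA methylation was not analysed here.

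Krt14, the basal type I keratin whose promoter drives Cre, was set beside the members in the same libraries, although its own level differed between the genotypes. In FPKM per length of the joined exons, Krt17 was 24.4% and 29.5% of Krt14 in untreated DKO libraries and 59.4% and 58.5% in untreated WT libraries. Relative to Krt14, then, Krt17 was lower in both DKO libraries. The level of Krt17 itself overlapped, so the lower ratio reflects the higher Krt14. Krt16 was 6.38% and 7.56% of Krt14 in untreated DKO libraries and 2.00% and 1.27% in untreated WT libraries. Krt6a was 2.78% and 2.76% in DKO libraries and 1.66% and 2.06% in WT libraries. After 5-aza Krt17 exceeded Krt14 in every library, at 157.0% and 161.4% in DKO libraries and 179.3% and 179.8% in WT libraries. Krt14 itself had a mean of 191.8 FPKM in untreated DKO libraries against 78.3 FPKM in untreated WT libraries (log2 difference 1.28, limma adjusted p = 0.189). After 5-aza its mean was 83.1 FPKM in DKO libraries and 36.3 FPKM in WT libraries, so it was not a stable reference in either table.

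The neighbours of the 5 genes show how their differences compare with those of other keratins. Krt90, 394 bases from Krt75 and also type II, had a log2 difference of 0.24 in untreated cells and 0.76 after 5-aza, and Krt5, next to Krt6a, had 0.75 and 0.67. Krt42, 1852 bases from Krt17, was tested only after 5-aza, with 0.50. Of 37 other keratins tested in untreated cells, 31 had a positive difference, with a median of 0.41 against 0.01 over all tested genes, and 1, Krt28, was called and was lower in DKO. The 13 hair shaft keratins tested had a median of 2.48. Of these, 11 were higher in DKO at an unadjusted p under 0.05, against 6.72% of all tested genes. The 4 basal keratins had a median of 1.02, with 2 (Krt14 and Krt15) higher at that level. The 4 suprabasal ones tested had a median of 0.27, with 0 at that level. The 5 keratins described here had a median of 0.88. That is the value of Krt6b, which passed the filter only through its DKO libraries. After 5-aza 25 of 38 other keratins tested were positive, with a median of 0.30 against 0.03 over all tested genes, and 0 were called. The hair shaft median was 0.33 and that of the 4 tested companion and stress keratins, without Krt6b, 1.08. The 4 basal keratins had a median of 0.60, with 4 higher at an unadjusted p under 0.05, against 6.64% of all tested genes. The 5 suprabasal ones had a median of 0.65, with 2 higher at that level. The 4 tested keratins outside the named classes had a median of 0.75, with 1 higher.

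**Figure D4:**
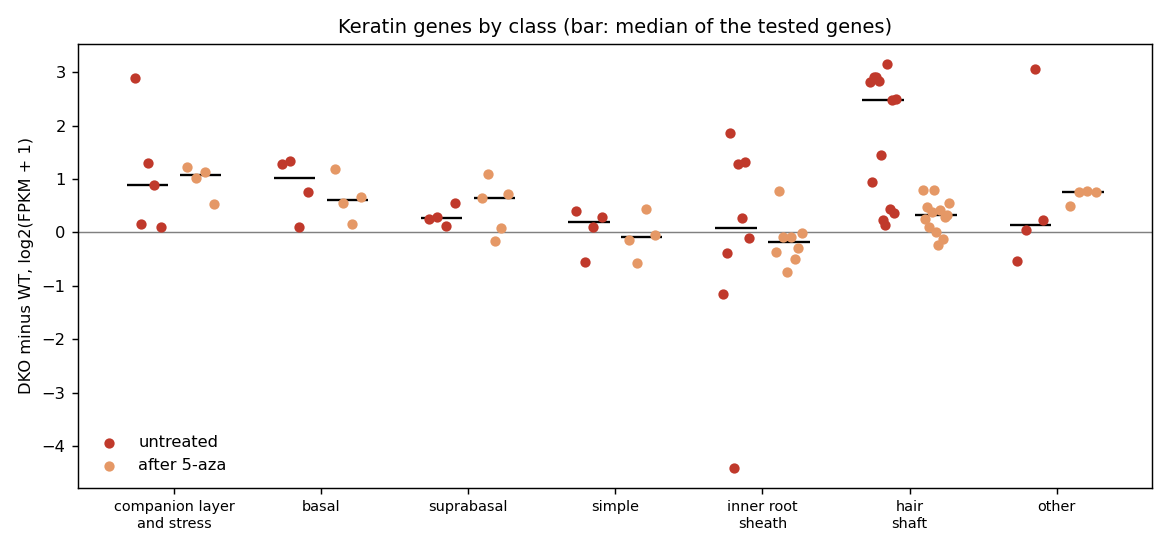
DKO minus WT difference on log2(FPKM + 1) of each tested keratin, grouped by class, without treatment and after 5-aza. In untreated libraries the hair shaft class has a median of 2.48 and the companion and stress class one of 0.88, the value of Krt6b. After 5-aza the hair shaft median is 0.33 and that of the companion and stress class, without Krt6b, is 1.08. The basal and suprabasal medians are then 0.60 and 0.65.

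**Figure D5:**
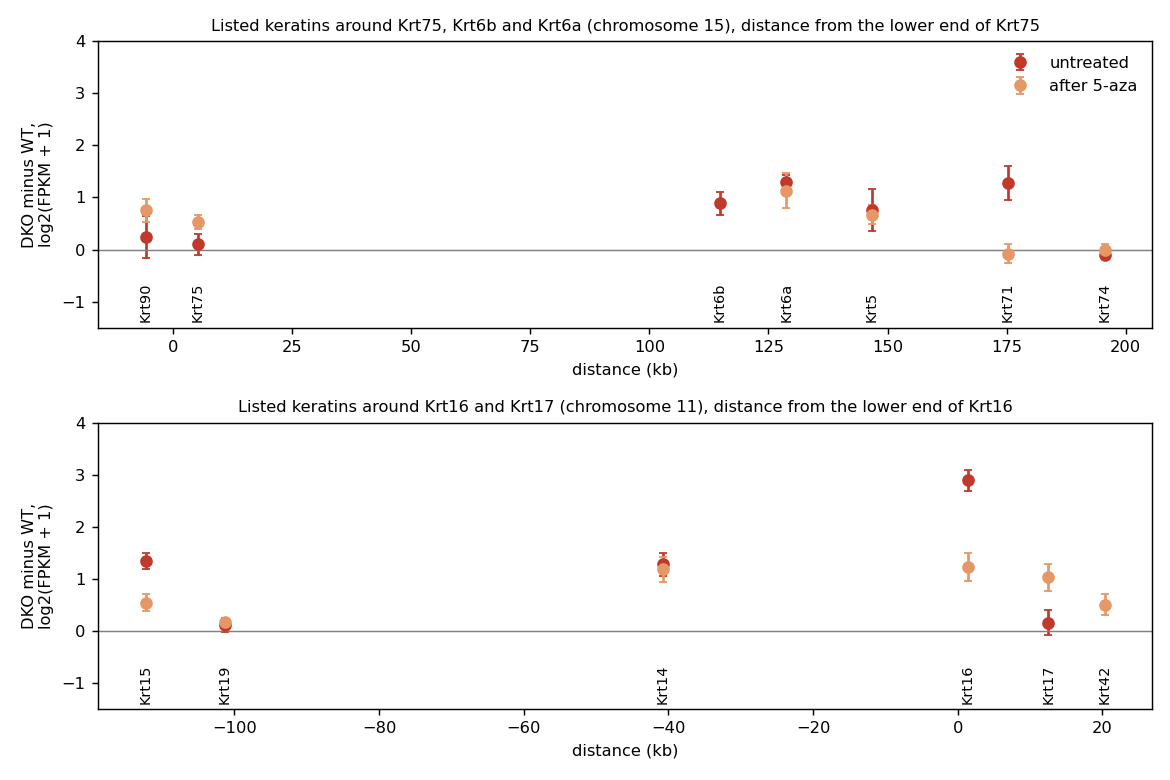
DKO minus WT difference on log2(FPKM + 1), with its standard error, of listed keratins that were tested and lie near Krt75, Krt6b and Krt6a or near Krt16 and Krt17, by distance in kb from the lower end of Krt75 or of Krt16. Krt75 lies apart from Krt6b and Krt6a with differences of 0.10 and 0.53, and Krt16 exceeds its neighbour Krt17 in untreated cells by 2.89 against 0.16.

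Genes that accompany or drive stress keratins were examined next. Of 20 alarm genes of wounded epidermis, 14 were listed in the untreated table and 6 passed the filter. Of these 6, 3 were higher at an unadjusted p under 0.05, against 6.72% of all tested genes higher and 4.73% lower. The cornified envelope gene Sprr1a had 12.6 and 27.7 FPKM in untreated DKO libraries and 4.68 and 4.69 FPKM in untreated WT libraries, and its log2 difference was 1.80 (limma adjusted p = 0.225). The others were the protease gene Klk6 and the interleukin-1 receptor antagonist Il1rn, both low. Klk6 had 0.428 and 0.250 FPKM in untreated DKO libraries and 0.107 and 0.0428 FPKM in untreated WT libraries. The remaining tested genes Cxcl1, S100a8 and Plaur had log2 differences of -0.07, -0.07 and 0.0017, and the median of the 6 was 0.15. After 5-aza Sprr1a, Klk6 and Il1rn, 3 of 6 tested, were higher at an unadjusted p under 0.05, and 1, Lcn2, was lower. The shares of all tested genes were 6.64% higher and 2.3% lower. Sprr1a then had 1.83 and 2.96 FPKM in DKO libraries and 1.21 and 1.00 FPKM in WT libraries. Of 12 listed regulators, which are transcription factors that act on stress keratins and Keap1, the inhibitor of NRF2, 11 were tested in untreated cells. Of the 11, 2 were higher and 1 lower at an unadjusted p under 0.05, against 6.72% and 4.73% of all tested genes. The AP-1 subunit Fosl2 had 18.7 and 21.6 FPKM in untreated DKO libraries and 12.8 and 13.7 FPKM in untreated WT libraries, with a log2 difference of 0.57 (limma adjusted p = 0.227), and after 5-aza 14.03 and 14.18 FPKM in DKO libraries and 9.95 and 9.17 FPKM in WT libraries, with 0.52 (adjusted p = 0.340). Fosl2 lay above WT in both DKO libraries of each table, against 24.1% of tested genes without treatment and 28% after 5-aza. The other higher regulator in untreated cells was Jund, with 0.55 (limma adjusted p = 0.359). The lower one was Gli2, with -0.30 (limma adjusted p = 0.335). Of the 11, 6 had a positive difference, with a median of 0.13.

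The next list held the epidermal growth factor receptor Egfr and its ligands, which raise Krt6 and Krt16 in cultured keratinocytes. Egfr had a mean of 15.9 FPKM in untreated DKO libraries and 15.8 FPKM in untreated WT libraries. Epgn had 0.687 and 0.701 FPKM in untreated DKO libraries and 0.103 and 0.326 FPKM in untreated WT libraries. Of the 6 tested genes of the list 2 (the ligands Epgn and Areg) were higher at an unadjusted p under 0.05, against 6.72% of all tested genes. Of 7 tested targets of NRF2, a factor that raises Krt6, Krt16 and Krt17, 1 was higher at that level in untreated cells, against the same 6.72%. This was the cystine transporter gene Slc7a11, and after 5-aza it had 1.04 and 0.942 FPKM in DKO libraries and 0.393 and 0.373 FPKM in WT libraries. Its log2 difference after 5-aza was 0.52 (limma adjusted p = 0.290). The quinone reductase gene Nqo1 was lower at an unadjusted p under 0.05 after 5-aza, with 1.26 and 1.22 FPKM in DKO libraries and 2.10 and 1.55 FPKM in WT libraries, a log2 difference of -0.33 (limma adjusted p = 0.531). After 5-aza 6.64% of all tested genes were higher at that level and 2.3% lower. Of the other companion layer markers listed, Calb2 was not found by name in either table and so could not be examined. Serpinb2 had 0.679 and 1.09 FPKM in untreated DKO libraries and 0.556 and 0.191 FPKM in untreated WT libraries. After 5-aza it had 0.1004 and 0.163 FPKM in DKO libraries against 0.0588 and 0.0736 FPKM in WT libraries. None of these lists had a member past an adjusted p of 0.05 by limma.

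Other cell types' markers also differed with genotype in the untreated libraries. The sum of 10 outer root sheath markers, Krt14, Krt15 and Krt5 among them, was 811.5 and 891.6 FPKM in DKO libraries and 431.1 and 521.4 FPKM in WT libraries. Most of it came from these 3 keratins. With the low Krt19 they summed to 763.7 and 839.9 FPKM in DKO libraries and 390.0 and 473.9 FPKM in WT libraries. The median log2 difference of the 10 markers was 0.20, against 0.01 over all tested genes. Of the 10, 3 were higher at an unadjusted p under 0.05, against 6.72% of all tested genes, and none was at 0. The sum of 8 immune markers was 13.8 and 17.0 FPKM in DKO libraries and 4.85 and 7.51 FPKM in WT libraries. Of 7 tested, 5 were higher at that level, and 4 tested endothelial markers had 3 higher, against the same 6.72% of all tested genes. The sum of 8 dermal papilla markers was 81.5 and 74.2 FPKM in DKO libraries and 154.7 and 122.3 FPKM in WT libraries. Of the 8, 7 were lower at that level, against 4.73% of all tested genes. The hair shaft keratins summed to 204.8 and 299.3 FPKM in DKO libraries and 32.4 and 46.8 FPKM in WT libraries. The sum of 10 markers of the suprabasal interfollicular epidermis overlapped, at 189.5 and 332.2 FPKM in DKO libraries and 336.3 and 123.9 FPKM in WT libraries, with 0 of 9 tested at that level. Their part in the Krt16, Krt6a and Krt6b results was not tested. After 5-aza that suprabasal sum was 17.7 and 24.5 FPKM in DKO libraries and 10.3 and 9.37 FPKM in WT libraries. Of 9 tested, 5 were higher, against 6.64% of all tested genes. The outer root sheath sum was 478.0 and 523.3 FPKM in DKO libraries and 329.5 and 282.1 FPKM in WT libraries. Krt5, Krt14 and Krt15 again made up most of it, and with Krt19 they summed to 438.7 and 487.2 FPKM in DKO libraries. In WT libraries those keratins summed to 300.3 and 253.8 FPKM. The part of all these markers in the results after 5-aza was not tested either.

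Each keratin was set against the 15695 genes that passed the filter in both tables, by the Euclidean distance between profiles of log2(FPKM + 1) over 8 libraries, centred within each table. The gene nearest to Krt6a was Krt14, at a distance of 0.40, followed by Mt4 at 0.52 and Hephl1 at 0.54. The profile of Krt6a itself lies 1.87 from flat. The nearest to Krt16 was Krt31, a hair shaft keratin, at 0.81, followed by Krtap8-1, a keratin-associated protein gene, at 0.97 and 4930553J12Rik at 1.01, and Krt31 had 36.6 and 56.4 FPKM in untreated DKO libraries and 4.67 and 6.64 FPKM in untreated WT libraries. The nearest to Krt17 was Foxq1, a forkhead factor, at 0.37, followed by Ednra at 0.58 and P3h2 at 0.59. The nearest to Krt75 were Ahnak, Gm26035 and Dsc3, the last a desmosomal cadherin, at 0.25, 0.25 and 0.27, in a profile only 0.70 from flat. Between members, Krt17 and Krt75 were 0.87 apart and Krt16 and Krt75 were 3.00 apart. Krt6b failed the filter after 5-aza and was not ranked.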

How the data were processed

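Per the labels, RNA came from sorted hair matrix keratinocytes, and 2 library kits are named without a group; replicates were kept apart. Per the submitters' processing notes, reads were handled with Trim Galore, STAR, HTSeq and DESeq2 on mm10 (GRCm38); versions and the strand setting are not given in the sources used here. The authors deposited FPKM per library, on a gene length in bases (unit other), a mean signal, log2 fold changes of WT over DKO (sign turned here), a score (the test statistic) and p-values. Value times length was a whole multiple of 1 step per library within 0.01 reads, which gave reads and library totals.

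A count test was planned if the columns were counts; being FPKM, they were fitted with limma 3.58.1 (R 4.3.3) on log2(FPKM + 1) with a variance trend, two-sided, Benjamini-Hochberg over all genes with 15 or more reads in all and, in 2 or more libraries, 10 or more once scaled to the median library. The method was tested on simulated data. Members, lists and alternatives were chosen with earlier results of these data known. Named genes were all 5 members, up to 3 per list and direction by unadjusted p, and the 3 nearest profiles of each member; neighbouring keratins were added after their values were seen. An exact permutation test of 2 against 2 libraries cannot go below p = 0.333. Loci and lengths are from GENCODE vM21.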

Additional observations from a re-analysis of the deposited data

How the results depend on the processing

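The DKO minus WT directions of Krt6a, Krt16 and Krt6b in untreated cells, and of Krt6a, Krt16, Krt17 and Krt75 after 5-aza, were kept under every alternative that gave a value. Untreated Krt6b gave a value in 13 alternatives, against 16 for the other members. It gave none without either DKO library or with a filter of mean 1 FPKM. Because Krt6b passed the filter only through its DKO libraries, its kept direction is no support. Leaving out 1 library gave 2.65 to 3.13 for untreated Krt16, 1.14 to 1.44 for Krt6a, -0.11 to 0.42 for Krt17 and -0.14 to 0.34 for Krt75; the last pair turned negative without DKO replicate 2, and Krt75 also without WT replicate 1. In the interaction, Krt6a ran from -0.63 to 0.31, Krt75 from 0.19 (without untreated DKO replicate 1) to 0.68 (without untreated DKO replicate 2), Krt17 from 0.60 to 1.14 and Krt16 from -2.03 to -1.30. Krt16 untreated passed with voom (3.37), with all 8 libraries (2.89) and with joined exon lengths (2.89), the last chosen after the data were seen, and Krt6a with voom (1.82). The number of genes called in untreated cells, 1, was 8 with a pseudocount of 0.1, 7 with 0.5, 0 without the filter, 0 without the variance trend, 77 with voom, 129 with all 8 libraries, 37 with joined exon lengths and 0 to 1 without a library. After 5-aza it was 0, 1 with all 8 libraries. The interaction's 5 calls became 1 and 3 with those pseudocounts, 2 without the filter, 1 with a filter of mean 1 FPKM, 2 with scaling to listed genes, 2 with TMM, 2 without the trend, 1 with voom and 0 to 8 without a library. The causes were not tested.

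The labels name no shared animal or litter behind a replicate number, and deviations of libraries with the same number correlated at 0.03 without treatment and -0.59 after 5-aza, so no pairing was assumed; untreated libraries with the same number do share their Xist and Ddx3y state. With the replicate block 13 genes were called in untreated cells and 0 in the interaction. Crossing the 5-aza numbers, chosen after the data were seen, called 91 genes, 57 higher and 34 lower, and 0 in the interaction, with Krt16 after 5-aza at 1.22 (limma adjusted p = 0.0469). Depth leaves Krt6b with 0 to 64 reads per library, and its value after 5-aza was not tested.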
